A study of Mus musculus with 6 samples.

Results

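Transcript levels of 10 genes of vessel signalling were examined in hearts of old and young mice. They are the vascular endothelial growth factor (VEGF) ligand genes Vegfa, Vegfb and Vegfc, the VEGF receptor genes Kdr, Flt1 and Flt4, the angiopoietin genes Angpt1 and Angpt2, and the TIE receptor genes Tek and Tie1. The genes were taken by symbol, as a fixed list of ligands and receptors. That list was chosen with earlier results of these data known. All 10 were found among the 18005 symbols of the count and FPKM tables. RNA sequencing libraries came from 3 hearts labelled old and 3 labelled young, 1 library per mouse; all 6 mice were labelled wild type and untreated. The labels used here give neither ages in months nor strain and sex, and the series title places the work in age-related cardiac hypertrophy. Nothing in the labels says how the hearts were dissected, so the parts of the organ in each library are not known. Each library mixes RNA of the cell types in the tissue taken.

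VEGF-A is released by heart muscle and other cells and acts on endothelial cells mainly through VEGFR2, the product of Kdr, which drives their growth, survival and migration. VEGFR1, the product of Flt1, binds VEGF-A tightly but signals weakly, exists also in a soluble form, and works largely as a decoy; it is the receptor for VEGF-B. VEGFR3, the product of Flt4, and its ligand VEGF-C act chiefly in lymphatic vessels. TIE2, the product of Tek, is kept active by angiopoietin-1 from mural and other supporting cells, which stabilises vessels, whereas angiopoietin-2 is released by endothelial cells and can oppose it. TIE1 has no well established ligand of its own and modulates TIE2.

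The sequences just upstream of the start sites are shown for 3 receptor genes, because Kdr and Tek were the receptors with lower transcript levels in old hearts and Flt1 had a small difference in the other direction. They are the 250 bases before the RefSeq start on the GRCm38.p6 build, in the gene's orientation; the deposited counts were made on a later build. Capitals mark GGAA on either strand, the core letters of sites for ETS factors, a family that includes regulators of endothelial genes.
Kdr, chr5:75978456-75978705, minus strand: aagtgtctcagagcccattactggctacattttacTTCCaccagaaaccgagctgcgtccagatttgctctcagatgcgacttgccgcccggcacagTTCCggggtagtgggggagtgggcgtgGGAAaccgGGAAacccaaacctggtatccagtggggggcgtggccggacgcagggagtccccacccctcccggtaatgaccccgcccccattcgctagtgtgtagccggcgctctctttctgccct
Tek, chr4:94739039-94739288, plus strand: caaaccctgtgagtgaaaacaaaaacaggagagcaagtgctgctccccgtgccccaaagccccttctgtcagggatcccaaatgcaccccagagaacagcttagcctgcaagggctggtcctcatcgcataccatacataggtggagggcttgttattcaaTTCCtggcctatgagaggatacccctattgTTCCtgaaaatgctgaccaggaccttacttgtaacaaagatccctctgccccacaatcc
Flt1, chr5:147726012-147726261, minus strand: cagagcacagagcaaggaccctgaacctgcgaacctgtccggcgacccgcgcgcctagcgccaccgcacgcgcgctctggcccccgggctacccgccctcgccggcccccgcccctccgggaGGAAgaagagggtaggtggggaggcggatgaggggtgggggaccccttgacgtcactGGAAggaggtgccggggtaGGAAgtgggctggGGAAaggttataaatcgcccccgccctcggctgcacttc
The letters GGAA or their complement occurred 4 times upstream of Kdr, 2 times upstream of Tek and 4 times upstream of Flt1, against a median of 3 over all 32851 upstream windows of this length, of which 93.4% held at least 1. ACGTG or GCGTG, the core bound by hypoxia inducible factors, was searched on both strands and occurred 2 times in the Kdr window, 1 time in that of Flt1 and 0 times in that of Tek, and 38.6% of all windows held it. The GC content was 61.6% for Kdr, 51.2% for Tek and 70.4% for Flt1. These matches describe letters only. RefSeq held such a window for 8 of the 10 genes, with none listed for Angpt1 or Angpt2.

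Library totals ranged from 11295280 to 12514005 counts, and the 10 genes had between 102 and 5903 counts in a library, the fewest for Angpt2 and the most for Kdr. Fold changes below are log2 of old over young from edgeR's quasi-likelihood test over 12893 genes, with standard errors, Benjamini-Hochberg adjusted p-values over all of these genes and a call at an adjusted p under 0.05. Old libraries had relatively fewer counts in long genes. With the tested genes in 4 classes of equal size by length, the longest class took 17.7% ± 0.395 of the counts in old and 20.2% ± 1.26 in young libraries (SD, n = 3 each; exact 2-sided permutation p = 0.1, the smallest that 3 against 3 allows). The median log2 fold change was -0.10 in that class and 0.11 in the shortest class. Immediate early genes, which respond within minutes to stimulation, were high in old hearts, with a summed level of 2743, 2896 and 6902 CPM (counts scaled for library size) in old 1, old 2 and old 3, against 783, 1147 and 1199 CPM in young 1 to 3. The part of either in the results below was not tested except where a value is given.

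Of the 10 genes, 1 rose (Angpt1) and 2 fell (Kdr and Tek) in old hearts. Among all tested genes 22% were called, 11.4% as higher and 10.6% as lower, so 3 of 10 is close to the share of calls in these libraries at large. Vegfa and Vegfb, the most abundant ligand genes, had log2 fold changes close to 0. On the CPM scale the groups did not overlap for 3 members, Angpt1 and Flt1 above and Tek below the young hearts, where 39.9% of all tested genes did not overlap, 19.6% higher and 20.3% lower in old hearts.

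**Figure D1:**
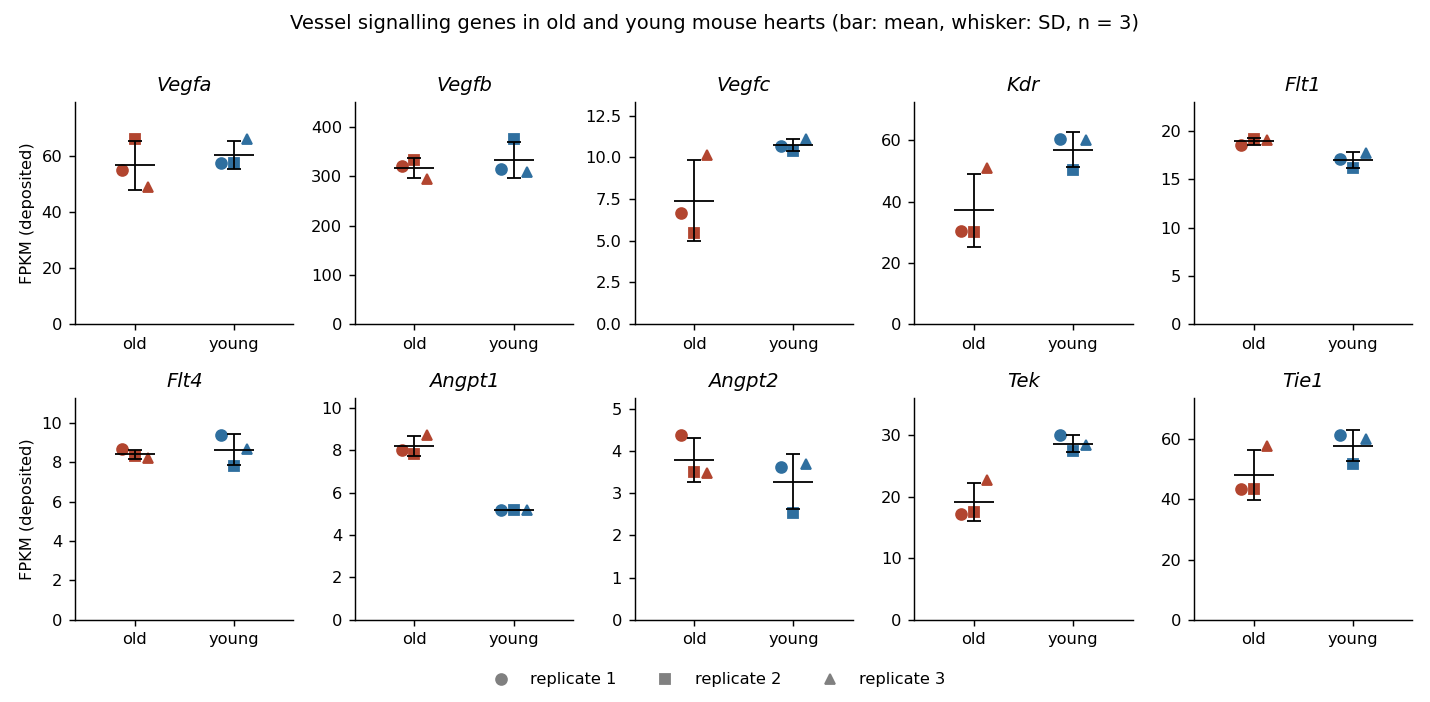
Deposited FPKM of the 10 genes in each library, old left of young, with a separate vertical axis from 0 for every gene; symbols mark replicates 1 to 3, bars the mean and whiskers the SD (n = 3). Angpt1 lies higher and Tek lower in all 3 old hearts than in any young heart, and for Kdr and Vegfc old replicate 3 lies near the young hearts.

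Levels per length differed widely between the genes. Given as FPKM, which divides by gene length, Vegfb was highest at 316 ± 20.2 in old and 333 ± 36.7 in young hearts (SD, n = 3), and it did not overlap with any other member in either group. Vegfa, at 56.6 ± 8.7 in old and 60.2 ± 4.9 in young hearts, Tie1, at 48.1 ± 8.26 and 57.8 ± 5.21, and Kdr, at 37.2 ± 11.9 and 57 ± 5.71, followed, and each overlapped with its neighbour in this order in both groups. Tek (19.1 ± 3.09 FPKM) and Flt1 (18.9 ± 0.353 FPKM) overlapped in old hearts, but in young hearts Tek (28.6 ± 1.32 FPKM) lay above Flt1 (17 ± 0.8 FPKM) in every library. The order of genes in FPKM rests on a single length per gene, 13929 bases for Flt1 and 4906 for Tek. Without division by length, Flt1 lay above Tek in young hearts, at 231 ± 8.08 CPM against 137 ± 4.25 CPM. Flt4, Angpt1 and Vegfc ended close together in old hearts, at 8.41 ± 0.221, 8.2 ± 0.484 and 7.41 ± 2.44 FPKM, with overlapping ranges. In young hearts these 3 genes were ordered without overlap, Vegfc at 10.7 ± 0.345, Flt4 at 8.64 ± 0.784 and Angpt1 at 5.19 ± 0.0102 FPKM. Angpt2 was lowest in both groups, at 3.79 ± 0.516 FPKM in old and 3.28 ± 0.641 FPKM in young hearts. Counts sum over all transcripts of a gene, so the soluble and membrane forms of Flt1 and the splice forms of Vegfa were not separated.

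Angpt1, the TIE2 agonist, rose. Its level was 8.04, 7.82 and 8.74 FPKM in old 1, old 2 and old 3, against 5.19, 5.20 and 5.18 FPKM in young 1 to 3. The young values nearly coincided as FPKM and were less close as CPM (18.8, 19.5 and 19.0 in young 1 to 3). Every old heart lay above the young hearts. The log2 fold change was 0.74 ± 0.09 (SE, edgeR adjusted p = 0.000145). In bulk tissue a change in the number of cells of a type and a change in RNA per cell cannot be told apart, here and in all results that follow. Angpt2, the context-dependent antagonist, had 4.39, 3.50 and 3.48 FPKM in old hearts, against 3.61, 2.54 and 3.68 FPKM in young hearts. The groups overlapped, and the log2 fold change of 0.29 ± 0.15 did not pass (edgeR adjusted p = 0.197).

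Tek, which encodes TIE2, fell. It had 17.1, 17.6 and 22.7 FPKM in old 1, old 2 and old 3, against 30.1, 27.5 and 28.4 FPKM in young 1 to 3. All old hearts lay below all young hearts, with old 3 the nearest to them. The log2 fold change was -0.50 ± 0.10 (edgeR adjusted p = 0.00552). Tie1, the co-receptor, had 43.5, 43.3 and 57.7 FPKM in old hearts, against 61.4, 51.8 and 60.1 FPKM in young hearts. Old 1 and old 2 were low and old 3 lay within the young range. The log2 fold change was -0.18 ± 0.11 and did not pass (edgeR adjusted p = 0.258), but was -0.31 without old 3 (adjusted p = 0.0255).

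Kdr, the main signalling receptor for VEGF-A, fell, and the call leaned on which libraries were included. It had 30.5, 30.2 and 50.9 FPKM in old 1, old 2 and old 3, against 60.4, 50.4 and 60.1 FPKM in young 1 to 3. Old 1 and old 2 lay far below all young hearts, while old 3 lay just above young 2. The log2 fold change was -0.54 ± 0.17 (edgeR adjusted p = 0.0369). Without old 3 it was -0.81 (adjusted p = 8.87e-05), and without any 1 of the other libraries the call was lost, with log2 fold changes between -0.61 and -0.41 and adjusted p between 0.0514 without young 2 and 0.138 without old 1. The other values were 0.109 without old 2, 0.108 without young 1 and 0.132 without young 3. DESeq2 did not call it (-0.53, adjusted p = 0.145), nor did the fit with the length trend removed (-0.46, adjusted p = 0.0664).

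Flt1, the decoy-like receptor, lay on the other side of 0. It had 18.5, 19.2 and 19.1 FPKM in old hearts, against 17.2, 16.2 and 17.7 FPKM in young hearts. The old hearts were all above the young hearts, by a small margin, as were 19.6% of all tested genes on the CPM scale. The log2 fold change was 0.24 ± 0.08, just outside the call (edgeR adjusted p = 0.0502). Flt1 has the longest gene model of the 10, at 13929 bases, against 7843 for Kdr and 4906 for Tek. With the trend of each library on gene length removed, its log2 fold change was 0.34 (adjusted p = 0.00618), and DESeq2 (0.24, adjusted p = 0.025) and the fit without old 3 (0.25, adjusted p = 0.0484) also called it. In all, 7 of 19 alternative fits called Flt1. Library size alone (0.15, adjusted p = 0.158), upper-quartile factors (0.19, adjusted p = 0.0907) and the fits on FPKM values did not. Without any 1 library other than old 3 the adjusted p was between 0.0884 and 0.178. Flt4, the lymphatic receptor, had 8.66, 8.33 and 8.23 FPKM in old hearts, against 9.40, 7.84 and 8.69 FPKM in young hearts. The old values fell inside the young range (log2 fold change 0.04 ± 0.08, edgeR adjusted p = 0.759), and the sign turned negative under library size, upper-quartile and FPKM scaling and without young 2.

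Among the ligands of these receptors, Vegfa had 55, 66 and 48.8 FPKM in old hearts, against 57.4, 57.4 and 65.9 FPKM in young hearts. Vegfb had 320, 333 and 294 FPKM in old hearts, against 315, 375 and 309 FPKM in young hearts. The groups overlapped for both genes, with log2 fold changes of -0.01 ± 0.12 for Vegfa (edgeR adjusted p = 0.971) and 0.0024 ± 0.10 for Vegfb (adjusted p = 0.989). Across all 19 alternative fits the log2 fold change of Vegfa stayed between -0.14 and 0.11 and that of Vegfb between -0.13 and 0.11. Vegfc, the lymphatic ligand, had 6.65, 5.44 and 10.1 FPKM in old hearts, against 10.7, 10.4 and 11.1 FPKM in young hearts. Old 1 and old 2 were low, and old 3 was just below the young hearts in FPKM and just inside their range in CPM. The log2 fold change of -0.46 ± 0.17 did not pass (edgeR adjusted p = 0.0758). Without old 3 it was -0.73 (adjusted p = 0.000969), without old 2 it was -0.28, and it passed with the length trend removed (-0.54, adjusted p = 0.0446).

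**Figure D2:**
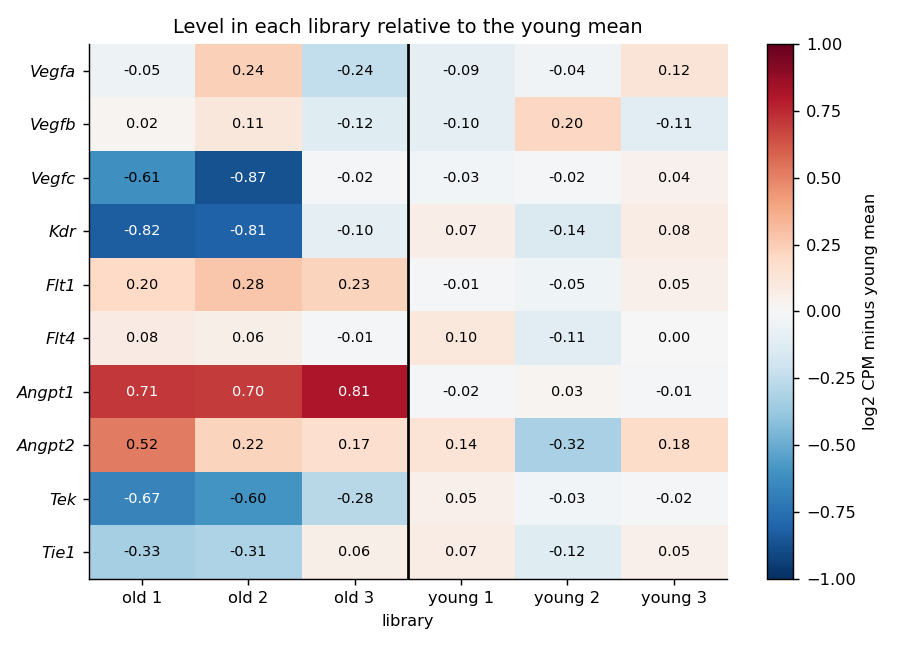
Log2 CPM of each gene in each library minus the mean of the 3 young libraries, old libraries left of the line. Kdr is at -0.82 and -0.81 in old 1 and old 2 and at -0.10 in old 3, and Vegfc, Tek and Tie1 are likewise highest in old 3 among the old libraries, whereas Angpt1 is between 0.70 and 0.81 in all 3.

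Old 3 stood apart for 4 of the genes. As log2 CPM minus the mean of the young hearts, Kdr was at -0.82, -0.81 and -0.10 in old 1, old 2 and old 3, and Vegfc at -0.61, -0.87 and -0.02. Tek was at -0.67, -0.60 and -0.28, and Tie1 at -0.33, -0.31 and 0.06. Angpt1 and Flt1 did not share this pattern, with 0.71, 0.70 and 0.81 for Angpt1 and 0.20, 0.28 and 0.23 for Flt1. Old 3 was also the library with the highest level of immediate early genes, and its median difference from the young mean over 26 endothelial genes was 0.10, while old 1 had 0.07 and old 2 had -0.10. The part of the immediate early genes in the difference between old libraries was not tested. With old 3 left out, 2 members rose (Angpt1 and Flt1) and 4 fell (Kdr, Tek, Tie1 and Vegfc), when 23.3% of 13049 tested genes were called. With any other library left out, 1 rose and 1 fell, namely Angpt1 and Tek.

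**Figure D3:**
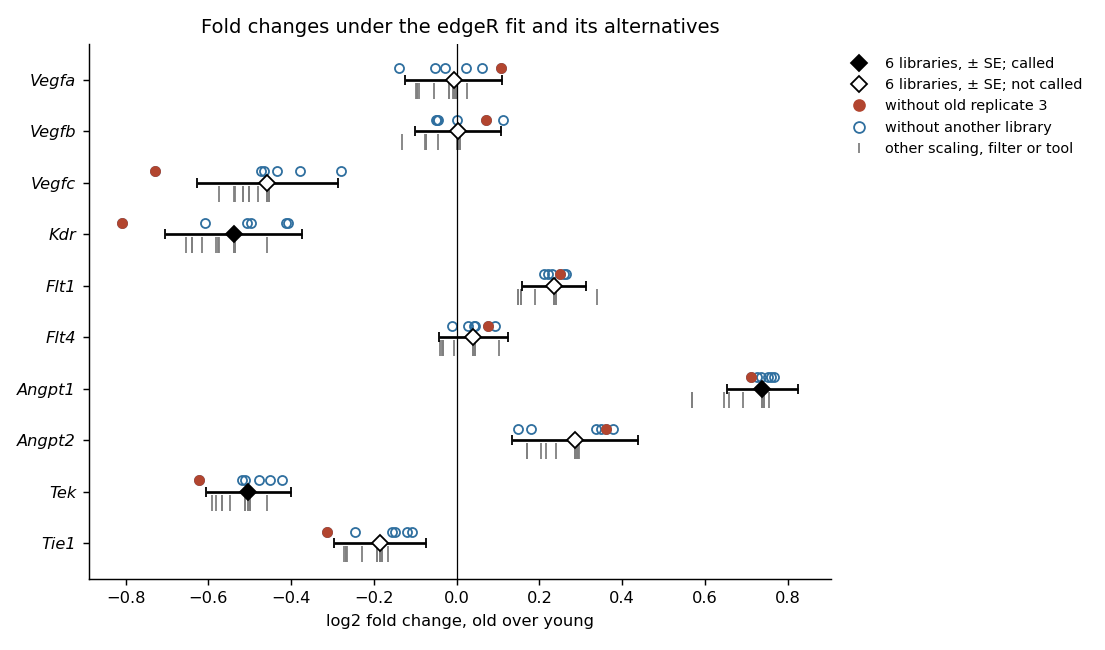
Log2 fold change of old over young for each gene: diamonds with SE for all 6 libraries (filled where called), circles above them for fits without 1 library (filled for old replicate 3), and ticks below them for other scalings, filters and tools. Angpt1 (0.57 to 0.77) and Tek (-0.62 to -0.42) keep their side of 0 in all 19 alternatives, and the fit without old replicate 3 is the most negative for Kdr, Vegfc, Tek and Tie1.

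Ratios within a library, which no scaling between libraries can change, were taken for pairs of genes that share a pathway. Of 9 ratios computed, 5 reached the smallest exact permutation p that 3 against 3 allows, 0.1, which is 0.18 after Benjamini-Hochberg adjustment over the 9. Flt1 relative to Kdr had log2 ratios of FPKM of -0.72, -0.65 and -1.41 in old hearts, against -1.82, -1.64 and -1.76 in young hearts. Every old heart had more Flt1 relative to Kdr, by 0.81 on average (exact 2-sided permutation p = 0.1). As a share of both in FPKM, Kdr made up 65.3% ± 6.4 in old and 76.9% ± 1.11 in young hearts (SD, n = 3). The size of this share depends on the gene lengths used. Taken from CPM, the log2 ratios of Flt1 to Kdr were 0.11, 0.18 and -0.58 in old 1, old 2 and old 3. They were -0.99, -0.81 and -0.93 in young 1 to 3, with the same difference between the groups. Tek relative to Tie1 was at -1.34, -1.30 and -1.35 in old hearts, against -1.03, -0.92 and -1.08 in young hearts. Here old 3 was like the other old hearts, and the groups lay apart by -0.32 (exact 2-sided permutation p = 0.1). Angpt2 relative to Angpt1 was at -0.87, -1.16 and -1.33 in old hearts, against -0.52, -1.04 and -0.49 in young hearts. The groups overlapped (difference -0.44, exact 2-sided permutation p = 0.2). Vegfa relative to Vegfb differed by -0.025, with overlapping groups (exact 2-sided permutation p = 1).

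**Figure D4:**
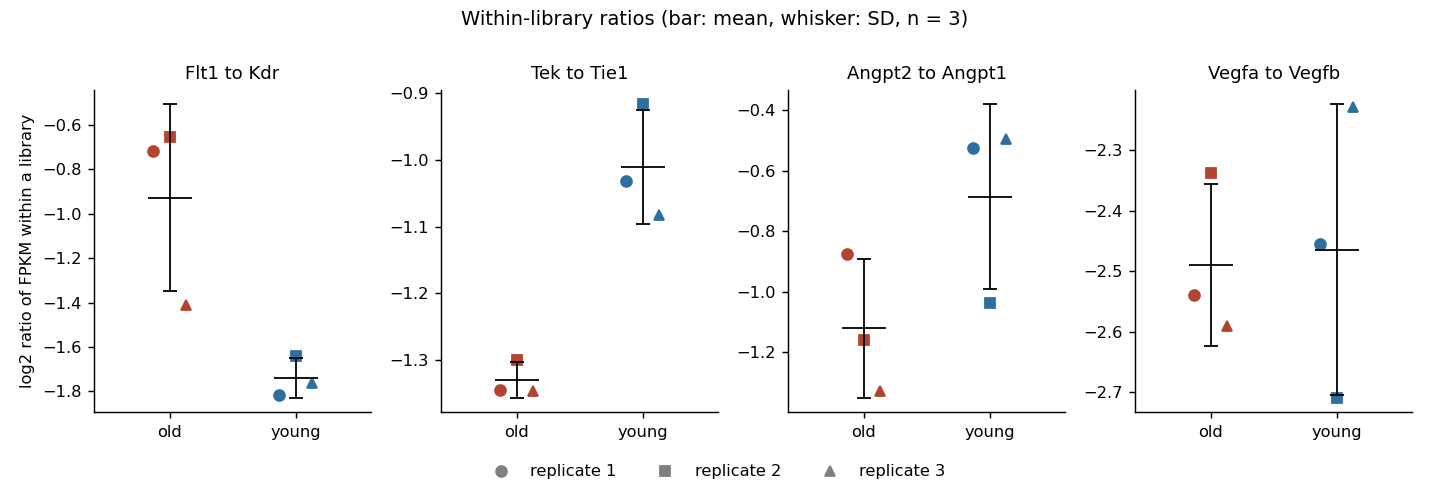
Log2 ratios of FPKM between 2 genes of the same library, old left of young, with a separate vertical axis for each pair; bars are means, whiskers SD (n = 3) and symbols replicates. Old and young hearts do not overlap for Flt1 to Kdr or for Tek to Tie1, and they overlap for the other pairs.

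The receptors are endothelial genes, so their levels were set against 26 other endothelial genes. All gene lists, here and below, were drawn up with earlier results of these data known. Their shares of called genes are therefore descriptive and no test of the lists. Of the 26 tested, 5 genes rose and 2 fell, 26.9% against 22% of all tested genes. The median log2 fold change was 0.015 against -0.006 over all tested genes. Those that rose included Rgcc, a cell cycle and complement response gene (1.02 ± 0.11), the arterial factor Sox17 (0.68 ± 0.09), the capillary lipase anchor Gpihbp1 (0.44 ± 0.08) and the junction gene Esam (0.37 ± 0.08), each a call that survived the omission of any library. The falls, chosen for naming after their values were seen, were the ETS factor genes Erg (-0.29 ± 0.09) and Ets1 (-0.74 ± 0.20). They numbered 0 without old 1, young 1 or young 3, 1 without young 2, 4 without old 3, and 5 with upper-quartile or library-size scaling. The summed CPM of the list was 6590 ± 428 in old and 6425 ± 194 in young hearts (SD, n = 3), with overlap. Cdh5, the endothelial cadherin gene, was at -0.33 ± 0.12 (edgeR adjusted p = 0.073) and Pecam1 at -0.12 ± 0.09 (adjusted p = 0.357), neither called.

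Relative to the summed FPKM of that list, Kdr differed by -0.70 and Tek by -0.63 on the log2 scale between old and young hearts, without overlap (exact 2-sided permutation p = 0.1 for each). The Tek values were -7.60, -7.33 and -7.27 in old hearts, against -6.77, -6.80 and -6.72 in young hearts. Tie1 differed by -0.32, also without overlap, while Flt1 (0.11) and Flt4 (-0.078) overlapped between the groups. Fabp4 made up 32.4% of the summed FPKM in old and 31.2% in young hearts, and Cd36 14.4% and 15.6%. With Cd36 and Fabp4 left out of the sum, Kdr differed by -0.70, Tek by -0.63, Tie1 by -0.31 and Flt1 by 0.115, all without overlap. Flt4 (-0.077) still overlapped. Relative to Cdh5 and Pecam1 alone, Tek differed by -0.28 and Kdr by -0.34, Flt1 by 0.47, all without overlap, and Tie1 by 0.039 with overlap. The size of these differences therefore depended on the endothelial genes chosen, while Tek and Kdr were lower in old hearts, without overlap, with each choice.

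Genes that act beside the ligands and receptors changed in both directions. Of 15 tested partners and regulators, 5 rose and 2 fell, 46.7% against 22% of all tested genes. The median log2 fold change was 0.40. As with the other lists, the choice of genes was made with earlier results known, so the share is descriptive. Pgf, which encodes placental growth factor, a ligand of VEGFR1 only, had 17.9 ± 1 CPM in old and 8.55 ± 1.62 CPM in young hearts (SD, n = 3). It rose by 1.07 ± 0.14 on the log2 scale (edgeR adjusted p = 0.000286). Thbs1, which encodes the angiogenesis inhibitor thrombospondin-1, rose to 130 ± 35.1 CPM in old hearts, against 19.2 ± 2.96 CPM in young hearts (2.76 ± 0.19). The angiopoietin-like genes Angptl2 (0.72 ± 0.09) and Angptl1 (0.88 ± 0.21) rose as well, the last not without young 1. Ccbe1, needed for VEGF-C maturation, rose (0.57 ± 0.14, not called without old 2, young 2 or young 3), and Ptprb, the endothelial phosphatase that restrains TIE2 (-0.26 ± 0.08, edgeR adjusted p = 0.0447), and the semaphorin receptor gene Plxnd1 (-0.41 ± 0.11) fell; these 3 were chosen for naming after their values were seen. The falls were 0 without old 1, old 2, young 1 or young 3 and 4 without old 3. The neuropilin co-receptor genes Nrp1 (-0.15 ± 0.10) and Nrp2 (-0.12 ± 0.12) did not pass.

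The chain below the receptors held few calls. Of 30 tested genes of VEGF receptor signalling, 2 rose and 2 fell, 13.3% against 22% of all tested genes. Rasip1, an endothelial RAS effector gene (0.53 ± 0.11), and the kinase gene Akt1 (0.34 ± 0.10) rose. Plcg1, the phospholipase that binds VEGFR2 (-0.42 ± 0.10), and the protein kinase C gene Prkca (-0.38 ± 0.09) fell. The rises numbered 1 without old 1, old 2, young 1 or young 3 and 4 without old 3, and the falls 1 without young 1 and 0 without young 3. Of 12 genes tested below TIE2, 2 rose and 0 fell, 16.7% against 22% of all tested genes. They were Akt1 again and the adaptor gene Grb14 (0.51 ± 0.09), and 1 rose without young 1, young 2 or young 3. Akt1 kept its call only without old 3 among the 6 fits that omit a library. Nos3, the endothelial nitric oxide synthase gene in both lists, was at 91.7 CPM in old and 88.9 CPM in young hearts (0.04 ± 0.09, edgeR adjusted p = 0.759). Klf2, a flow-responsive factor gene, had a large but variable difference that did not pass (1.03 ± 0.37, adjusted p = 0.0628). Nos3 and Klf2 were chosen for naming after their values were seen.

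Notch genes, which pattern sprouting vessels under VEGF, were also mixed. Of 16 tested, 3 rose and 4 fell, 43.8% against 22% of all tested genes. The target genes Hes1 (0.97 ± 0.12), Hey1 (0.86 ± 0.20) and Nrarp (0.50 ± 0.12) rose, and the DNA-binding partner of Notch, Rbpj, fell (-0.35 ± 0.08). The target genes Hey2 (-0.62 ± 0.19) and Heyl (-0.36 ± 0.11) and the receptor gene Notch3 (-0.38 ± 0.10) fell, all named after their values were seen. Called targets thus lay on both sides of 0. The ligand gene Dll4 was at 0.01 ± 0.12 and the receptor gene Notch1 at -0.01 ± 0.10, neither called and both named after their values were seen. The falls were 2 without old 1 or old 2, 1 without young 1 and 0 without young 3. The calls of Hes1 and Hey1 survived the omission of any library.

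Hypoxia inducible factors are the classical activators of Vegfa transcription. Of 9 tested genes of that pathway, 1 rose and 2 fell, 33.3% against 22% of all tested genes. Egln3, an oxygen-sensing prolyl hydroxylase gene that the factors themselves induce, rose to 112 ± 21.7 CPM in old hearts, against 47.5 ± 4.88 CPM in young hearts (1.24 ± 0.13). Hif1a had 64.2 ± 2.79 CPM in old and 96.3 ± 2.41 CPM in young hearts and fell by 0.58 ± 0.08 on the log2 scale (edgeR adjusted p = 0.000352). Vhl, whose product marks the factors for degradation, fell by 0.46 ± 0.11. The falls were 1 without old 1, young 1 or young 2, and the rises 2 without old 3. Of 19 hypoxia responsive genes, 7 rose and 0 fell, 36.8% against 22% of all tested genes. Among those that rose were Ankrd37 (1.48 ± 0.17), the collagen prolyl hydroxylase gene P4ha1 (1.19 ± 0.22), Higd1a (0.54 ± 0.09) and the glycolytic gene Pgk1 (0.35 ± 0.09). The 7 were 4 without old 1, 3 without old 2, young 1 or young 3, 4 with library-size or upper-quartile scaling, 4 on filtered FPKM values and 2 on unfiltered FPKM values. Pgk1 lost its call without old 1, old 2, young 1 or young 3. Without young 1, and with library-size scaling, 1 of the 19 genes fell. In the fit of all libraries, 14 of the 19 had positive and 5 negative log2 fold changes. The 5 were Bnip3l (-0.29 ± 0.12), Adm (-0.17 ± 0.13), Ndrg1 (-0.16 ± 0.08), Pdk1 (-0.13 ± 0.11) and Ero1a (-0.0032 ± 0.11). None of these 5 was called, and they were chosen for naming after their values were seen. The level of Vegfa, a member of the same response in many tissues, is given above and did not pass the test.

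**Figure D5:**
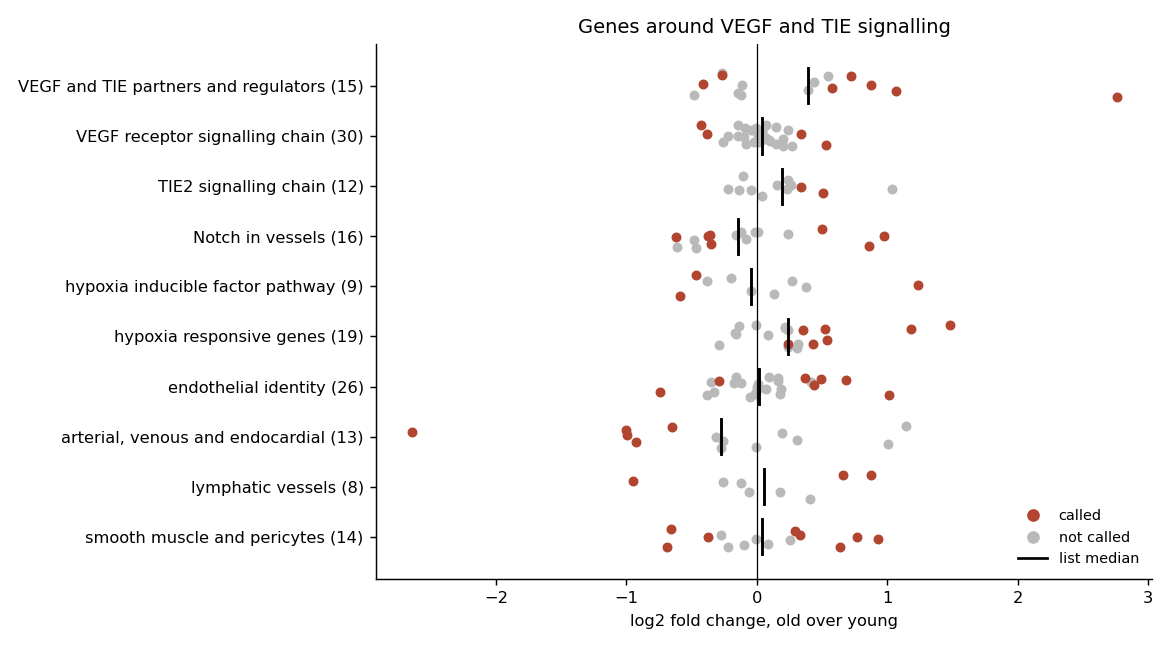
Log2 fold change of old over young for every tested gene of 10 lists around vessel signalling and of vessel cell markers, with the number tested in brackets; red points are called by edgeR, grey points are not, and black lines are list medians. Most lists hold called genes on both sides of 0, and the arterial, venous and endocardial list holds 5 called genes, all lower.

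Markers of vessel types and of supporting cells were measured beside these genes. Of 13 tested arterial, venous and endocardial genes, 0 rose and 5 fell, 38.5% against 22% of all tested genes. Among the falls were the apelin receptor gene Aplnr (-2.65 ± 0.27), the connexin gene Gja5 (-0.99 ± 0.14), the ephrin gene Efnb2 (-0.93 ± 0.16) and the kinase gene Bmx (-1 ± 0.22). Each of these was called by edgeR in all 6 fits that omit a library. In the fit of all libraries, 4 of the 13 had positive and 9 negative log2 fold changes. The 4 were Sele (1.15 ± 0.49), Selp (1.01 ± 0.35), Apln (0.31 ± 0.11) and Vcam1 (0.20 ± 0.12). None of them was called, and they were chosen for naming after their values were seen. The arterial factor gene Sox17, which rose, was counted in the endothelial list. Without old 2, 4 of this list rose, and without old 3 or young 1, 1 rose. The summed level of the list was 346 ± 28.5 CPM in old and 488 ± 30.9 CPM in young hearts (SD, n = 3), without overlap. Without Aplnr it was 331 ± 21 CPM in old and 399 ± 14.9 CPM in young hearts, also without overlap. Of 8 lymphatic markers, 2 rose and 1 fell, 37.5% against 22% of all tested genes. Prox1, the lymphatic master factor gene that heart muscle also expresses, fell by 0.95 ± 0.10. Lyve1, shared with macrophages, rose (0.88 ± 0.11), and Foxc2 rose (0.66 ± 0.20). The lymphatic rises were 1 without old 2, young 1 or young 2, and Foxc2 also lost its call without old 1. The summed lymphatic level was 232 ± 14.6 CPM in old and 257 ± 14.1 CPM in young hearts, without overlap. Without Prox1 the sum was 187 ± 16.5 CPM in old and 170 ± 15.3 CPM in young hearts, with overlap and in the other direction.

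Pericytes and smooth muscle are known sources of Angpt1. Of 14 tested genes listed for these cells, 5 rose and 3 fell. Their sum overlapped at 2143 ± 86.3 CPM in old and 2068 ± 146 CPM in young hearts. The list and its rises include Pdgfb, a ligand gene of endothelial origin and so not a marker of these cells. The pericyte receptor gene Pdgfrb (-0.69 ± 0.11), Cspg4 (-0.66 ± 0.14) and Notch3 (-0.38 ± 0.10) fell. Pdgfb (0.93 ± 0.16) and the smooth muscle coactivator gene Myocd (0.33 ± 0.08) rose, as did Acta2 (0.77 ± 0.20), Cnn1 (0.64 ± 0.21) and Tagln (0.29 ± 0.09). The 6 genes not called included Rgs5 (0.09 ± 0.08), Vtn (-0.01 ± 0.14), Kcnj8 (-0.27 ± 0.11) and Abcc9 (-0.22 ± 0.11). Notch3, Acta2, Cnn1, Tagln and the genes not called were chosen for naming after their values were seen. The rises were 3 without old 2 or old 3 and 2 without young 1, young 2 or young 3. Of the 11 fibroblast markers 2 rose and 2 fell, and of the 11 macrophage markers 3 rose and 1 fell, with sums that overlapped between the groups. The fibroblast rises were 0 without old 1 or any 1 of the young libraries and 1 without old 3, and the falls 1 without young 1 or young 2. The macrophage rises were 1 without old 1, young 1 or young 3 and 5 without old 3, and the fall was lost without any library but old 1. The summed level of 13 heart muscle genes was 91229 ± 2486 CPM in old and 79599 ± 1060 CPM in young hearts, without overlap. Most of this difference was Actc1, without which the sums were 73890 ± 1233 CPM in old and 71392 ± 1015 CPM in young hearts, still without overlap. Of the 13, 3 rose and 2 fell. The rises were 1 without old 1 or young 1, and the falls 1 without old 1 or young 3. The epicardial list had 1 rise of 8 tested, Wt1 (1.67 ± 0.13), and falls of 1 without old 1 and 2 without young 2. The red blood cell list had 1 fall of 9, Hba-a2, which lost its call in 4 of 6 fits that omit a library, while 8 of the list fell without young 1. Of 26 immediate early genes 25 rose. Called genes were 57.1% of the pericyte and smooth muscle list, 36.4% of the fibroblast and of the macrophage list, and 38.5% of the heart muscle list. They were 12.5% of the epicardial, 11.1% of the red blood cell and 96.2% of the immediate early list, against 22% of all tested genes. The part of any of these cell types or genes in the results for the 10 vessel signalling genes was not tested.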

How the data were processed

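RNA from mouse hearts was extracted with a mirVana kit and made into TruSeq Stranded mRNA libraries, per the labels' protocols. The authors deposited unnormalised read counts by gene and FPKM values that match a calculation from the same counts and a single length per gene. Trimmomatic, HISAT2, Bowtie2, HTSeq, Cufflinks, StringTie, DESeq and the GRCm39 build are named in the submitters' processing notes; for versions, roles and the strand setting nothing is given in the sources used here, so overlapping genes on the other strand cannot be told apart. All 12 per-sample files equalled their column of the tables of all samples.

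Genes were tested with edgeR 4.0.16 (R 4.3.3), quasi-likelihood test of the deposited raw counts, filterByExpr, TMM, no covariate, all 6 libraries. CPM values are TMM scaled. A standard error is the fold change divided by the root of the F statistic. The replicate numbers name separate samples, titled as separate mice, and nothing says more of their origin. The p-values set the difference between groups against the spread between these samples. Members, the 16 gene lists and the tests were chosen with earlier results of these data known. Named genes were the 10 members and, per list, up to 4 called genes of smallest p. Alternatives used limma 3.58.1 and DESeq2 1.42.0, other scalings and filters, FPKM on a log2 scale, removal of length trends (loess, span 0.5) and omission of each library; a further choice of endothelial genes and marker sums without Prox1, Actc1 or Aplnr were added once values had been seen. Simulated counts served to check the test. The 9 ratio p-values were adjusted by Benjamini-Hochberg. Promoter letters are from RefSeq (GRCm38.p6).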

Additional observations from a re-analysis of the deposited data

How the results depend on the processing

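The calls of Angpt1 and Tek held in all 19 alternative fits, and no called gene that the naming rule chose changed direction in any of them. Of the 53 other genes named by rule as called, 34 stayed called whichever library was left out. Among the 10 vessel signalling genes the number higher (1) was 2 with RLE factors, a filter of 1 CPM in 3 libraries, the length trend removed, limma-voom, DESeq2, omission of the 10 most abundant genes or a threshold of 0.1, and 1 to 2 with a library left out. The number lower (2) was 1 with DESeq2, on unfiltered FPKM values and at a threshold of 0.01, 3 with library size alone and at a threshold of 0.1, and 1 to 4 with a library left out. Over all genes, 1467 were higher and 1368 lower. With a library left out these counts were 850 (without young 1) to 1597 and 682 (without young 3) to 1444; 870 were higher without young 3, and 707 and 818 lower without young 1 and old 1. The higher genes were 907, 897 and 810 on FPKM values (pseudocount 1, pseudocount 0.1, and 1 without a filter), and at a threshold of 0.01 there were 724 higher and 531 lower. Library size alone gave 2122 lower genes, and the share of calls that were higher was 32.7% with it, 40.2% with upper-quartile factors 35.1% on filtered and 38.1% on unfiltered FPKM values, against 51.7% with TMM. The median log2 fold change of all genes was -0.087 with library size alone and -0.0065 with TMM.

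Genes near 0 changed sign without being called. Vegfa was at 0.025 with the length trend removed and between -0.14 and 0.11 with a library left out. Vegfb was at -0.045 with upper-quartile factors, -0.077 with library size, -0.13 with the length trend removed and -0.073 on FPKM values at either pseudocount or without a filter, and between -0.0501 and 0.11 with a library left out. Flt4 was at -0.0062, -0.041, -0.033, -0.036 and -0.033 with upper-quartile factors, library size, and FPKM at pseudocounts 1 and 0.1 and without a filter, and between -0.0122 and 0.0936 with a library left out. With a library left out the difference in the Vegfa to Vegfb ratio was between -0.15 and 0.093, and that of Flt4 to the endothelial list between -0.16 and 0.0009. Against Cdh5 and Pecam1 alone the differences were -0.34 for Kdr, 0.47 for Flt1, 0.28 for Flt4, -0.28 for Tek and 0.039 for Tie1. The cause of these changes was not tested.

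With the replicate number as a block (replicate block), 1 vessel signalling gene was higher and 3 were lower, with Vegfc called (-0.48, adjusted p = 0.0366). Deviations of same-numbered libraries correlated at 0.0782, 0.0782 and 0.00675. Libraries numbered 1 and 2 correlated best with their own number in the other group, and those numbered 3 did not. Correlations this small cannot decide whether the numbers mark pairs. The labels do not say that they do, so the numbers were not treated as pairs. Depth limits Angpt2 most among the 10 genes, with 102 counts in young 2.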
